A study of Mus musculus with 12 samples.

Results

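The enzymes of glycolysis and of the pentose phosphate pathway were followed through 4 cell populations of mouse bone marrow, together with the pyruvate carrier and the pyruvate dehydrogenase complex that take pyruvate into the mitochondrion. The list held 37 genes chosen by name, and 36 of them matched 1 row each among the 14560 genes of the expression table. Eno2 was not analysed here. RNA was sequenced from 3 libraries of each population, 12 in all, from C57BL/6 mice; the design text speaks of 3 mice and of independent triplicates, and ages and treatments were not stated. DN-GMPs, Pro-BMPs and Pre-BMPs were all sorted as cells without B220, CD3, Ter119, CD11b, Gr1 or Sca1 and with c-Kit, CD34 and CD16/32. They were split by E-cadherin (CDH1) and by the IgE receptor chain FceRIa: DN-GMPs had neither, Pro-BMPs had CDH1 alone, and Pre-BMPs had FceRIa and were given as CDH1-negative. Basophils were sorted as FceRIa+ and CD49b+ cells without c-Kit, Sca1, B220, CD4, CD8a or Ter119. By its title the study is about E-cadherin on progenitors that take the path to basophils and mast cells, and the comparisons below ask how these enzymes differ between its successive populations.

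Glycolysis splits glucose into pyruvate in the cytosol, and lactate dehydrogenase turns pyruvate into lactate. Several steps can be run by more than 1 isozyme, encoded by separate genes that differ in regulation and in the tissues that use them. The pentose phosphate pathway branches off after the first step: its oxidative arm makes NADPH, which granulocytes use for the oxidative burst and for redox defence, and its non-oxidative arm exchanges sugar phosphates with glycolysis and supplies ribose for nucleotides.

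Levels are given in CPM, reads per 1000000 of the deposited scaled library size. Each library had 29762981 to 42502405 reads on listed genes, and a count of 0 allows up to 3 reads, or 0.0512 to 0.0745 CPM, by counting error alone. Marker genes followed the labels: the summed level of 8 basophil genes was 106 to 138 CPM in DN-GMPs, with Fcer1a and Cd200r3 at 0 in all 3 libraries, and 38495 to 44535 CPM in basophils. Markers of other cell types moved too, and their part in the results below was not tested. The sum of 5 neutrophil progenitor genes was 18543 to 22576 CPM in the DN-GMP and Pro-BMP libraries. The Pre-BMP libraries had 5637 to 6846 CPM and the basophil libraries 3324 to 4577 CPM. From Pre-BMPs to basophils Elane, Mpo and Prtn3 averaged lower. Ctsg went from 682 to 1188 CPM on average at that step, and Ms4a3 from 405 to 558 CPM. The sum of 10 mature neutrophil genes was 707 to 1003 CPM in basophils and 73.0 to 301 CPM elsewhere; in basophils it was mostly Cxcr2, at 686 CPM on average, while Ltf, Camp and Mmp8 averaged 3.34, 4.34 and 1.60 CPM. Lcn2 averaged 90.6 CPM in basophils and at most 15.1 CPM elsewhere, Retnlg 13.2 CPM and at most 4.45 CPM, and Mmp9 4.22 CPM and at most 0.169 CPM. S100a8, S100a9 and Ngp went the other way from Pre-BMPs, where they averaged 50.4, 44.9 and 28.3 CPM. In basophils they averaged 23.0, 20.1 and 14.5 CPM, and in DN-GMPs 60.5, 4.69 and 2.17 CPM. The sum of 6 monocyte genes was 1190 to 1482 CPM in DN-GMPs and 71.7 to 442 CPM in the other populations. Csf1r, Ly86, F13a1 and Irf8 averaged highest in DN-GMPs. Ccr2 averaged 302 CPM in basophils against 87.5 CPM in DN-GMPs, and Cx3cr1 125 CPM in Pre-BMPs against 14.0 CPM in DN-GMPs. The sum of 6 eosinophil genes was 1657 to 3463 CPM in Pro-BMPs and Pre-BMPs and 20.3 to 400 CPM in the other populations. Of 4 mast cell genes 2 were measured, and their sum was 82.7 to 289 CPM in Pre-BMPs and at most 1.74 CPM elsewhere. Of 7 erythroid genes 6 were measured, with a sum of 97.7 to 131 CPM in Pre-BMPs and at most 17.4 CPM elsewhere. Of 4 platelet and megakaryocyte genes 3 were measured: their sum was 36.2 to 78.3 CPM in DN-GMPs, 111 to 156 CPM in Pro-BMPs and 341 to 477 CPM in Pre-BMPs. Basophils had 1189 to 1588 CPM, nearly all of it Itga2b, at 1341 CPM on average, with Gp9 at 0.469 CPM and Pf4 at 0. Itga2b also made up most of the sum in Pro-BMPs and Pre-BMPs, at 132 and 405 CPM on average. The sum of 10 proliferation genes ran from 3828 to 4065 CPM in DN-GMPs to 2649 to 3239 CPM in basophils. Not all of these genes fell. Mki67, Top2a and Rrm2 averaged 234, 369 and 297 CPM in DN-GMPs and 333, 479 and 313 CPM in basophils. The Mcm genes and Pcna averaged lower in basophils. In these bulk samples fewer cells of a type and less RNA per cell cannot be told apart.

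Across the 4 populations most of these genes changed. The moderated F-test of limma called 30 of the 36 members at an adjusted p under 0.05, against 46.8% of all genes; among the 8652 genes that averaged above 10 CPM, as 34 of the members did, it called 59.9%. The called members were most often highest in DN-GMPs, in 12 of 30 cases, and most often lowest in Pre-BMPs, in 14 of 30. The same counts were not made over all genes, so whether the members differ from them in this is not known. From DN-GMPs to Pro-BMPs 0 members rose, against 2% of all genes called higher, and 2 fell, Hk3 and Eno1, against 0.536% called lower; the call of Eno1 was kept in only 1 of the 6 fits that leave out 1 library. The count of 0 stood beside 5 members higher at an unadjusted p under 0.05, and limma with voom weights also called 0. From Pro-BMPs to Pre-BMPs 13 members fell and 4 rose, where 4.69% of all genes were called lower and 4.8% higher; among genes above 10 CPM 6.73% were called lower. Of these 17 calls 11 to 12 were left in each fit without 1 library: the rises of Hk1, Pfkm, Taldo1 and Pdk2 were kept in 1, 0, 1 and 0 of the 6 fits, and the falls of Aldoa and Mpc1 in 2 and 0. The median log2 change of the members at that step was -0.49, and that of all genes 0.02. From Pre-BMPs to basophils 13 members rose, or 36.1%, and 9 fell, or 25%. Of all genes 13.9% were called higher and 16.5% lower, and of those above 10 CPM 19.9% and 20.9%. The share of members that fell was near that of genes above 10 CPM. The median change of the members was 0.13, against -0.10 for all genes. Basophils set directly against DN-GMPs had 8 members higher and 17 lower. The share of members higher, 22.2%, was near the 23.2% of all genes, while 47.2% of members were lower against 23.2% of all genes.

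**Figure D1:**
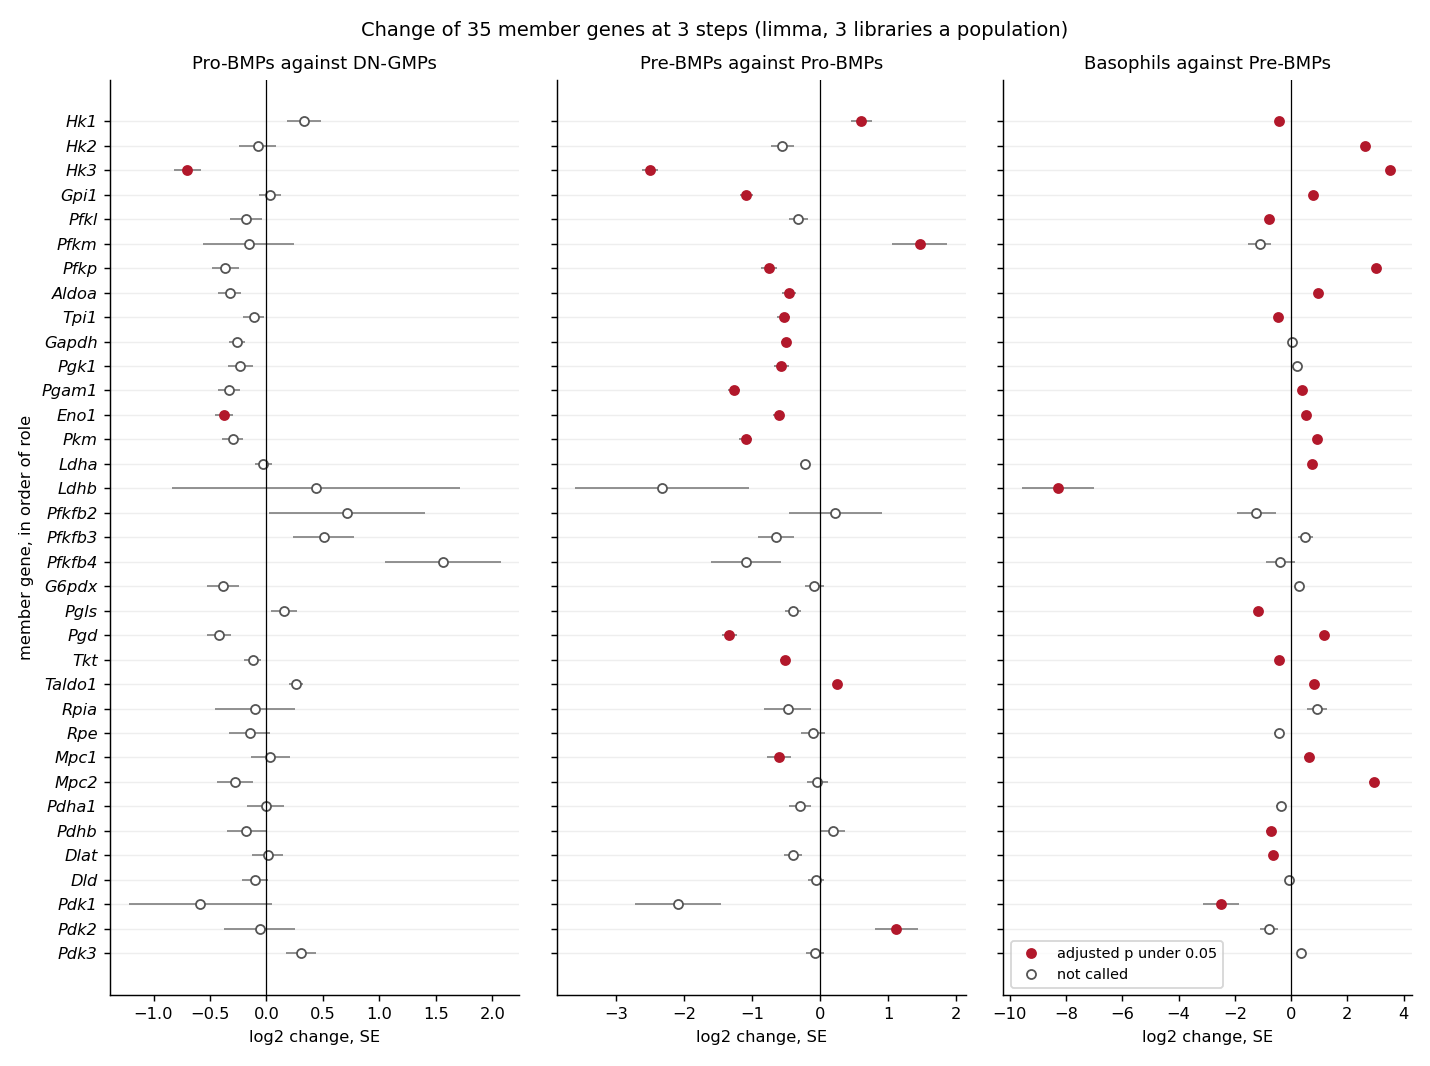
Log2 change with its SE for 35 members (Aldoc, whose DN-GMP libraries were all at 0, is left out) at the 3 successive steps, in order of role; filled points have an adjusted p under 0.05, and the 3 horizontal axes differ in range. Of the 35, 2 are called in Pro-BMPs against DN-GMPs, most changes of Pre-BMPs against Pro-BMPs lie below 0, and those of basophils against Pre-BMPs spread from -8.29 for Ldhb to 3.53 for Hk3.

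At the step to basophils 4 members rose with a log2 change of 2 or more: the hexokinases Hk2 and Hk3, the phosphofructokinase Pfkp and the pyruvate carrier subunit Mpc2. These genes were picked for that rise, and at the earlier steps they did not all move alike. The 250 bases before the transcription start of these 4 genes follow, on the strand of the gene. The sequences are from the RefSeq promoter table of build GRCm38.p6. Capitals mark 3 short motifs searched on both strands. ACGTG is a core found in hypoxia response elements and in many E-boxes, and GAGGAA a core found in ETS family sites. TTGCGCAA is a palindrome bound by C/EBP factors. TTGCGCAA was added after the sequences had been read. The windows are, in that order, chr6:82774455-82774704 on the minus strand, chr13:55021386-55021635 on the minus strand, chr13:6648772-6649021 on the minus strand and chr1:165461010-165461259 on the plus strand.
Hk2: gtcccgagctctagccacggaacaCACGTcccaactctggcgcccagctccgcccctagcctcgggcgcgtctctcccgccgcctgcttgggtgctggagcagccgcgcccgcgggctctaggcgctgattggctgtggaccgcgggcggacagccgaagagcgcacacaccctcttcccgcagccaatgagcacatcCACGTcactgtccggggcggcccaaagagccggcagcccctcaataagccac
Hk3: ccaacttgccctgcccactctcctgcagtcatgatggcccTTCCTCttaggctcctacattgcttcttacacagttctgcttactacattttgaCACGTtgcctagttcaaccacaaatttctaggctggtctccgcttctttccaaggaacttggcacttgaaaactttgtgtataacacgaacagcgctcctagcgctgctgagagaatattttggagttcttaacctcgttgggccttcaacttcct
Pfkp: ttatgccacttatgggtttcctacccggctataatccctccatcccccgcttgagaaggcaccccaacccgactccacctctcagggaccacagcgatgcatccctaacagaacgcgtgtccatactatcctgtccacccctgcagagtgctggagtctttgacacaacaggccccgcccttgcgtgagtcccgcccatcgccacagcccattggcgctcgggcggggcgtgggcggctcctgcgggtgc
Mpc2: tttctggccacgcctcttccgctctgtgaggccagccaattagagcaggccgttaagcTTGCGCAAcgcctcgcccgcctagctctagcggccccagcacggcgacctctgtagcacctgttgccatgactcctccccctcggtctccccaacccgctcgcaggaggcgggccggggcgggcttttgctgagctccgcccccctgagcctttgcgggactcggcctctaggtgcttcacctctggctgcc

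No searched motif was in all 4 windows, and other forms of these cores were not searched. Hk2 held ACGTG on the opposite strand at 226 and 52 bases before the start, Hk3 held it on the opposite strand at 156 bases and GAGGAA on the opposite strand at 210 bases, and Mpc2 held TTGCGCAA at 192 bases. The window of Pfkp held none of these letters, which says only that they are not in this window. All 36 members had at least 1 window, 54 in all since some genes have several starts. Of these windows 17 held ACGTG, or 31.5%, against 16.6% of the 32851 windows in the table. GAGGAA was held by 14, or 25.9%, against 23.3%. TTGCGCAA was found in 2 member windows, those of Mpc2 and Rpia, and in 0.164% of all windows. The Mpc2 sequence had been read before this motif was added, so its count cannot test whether member windows hold the motif more often. Member windows were richer in G and C, with a median of 60.4% against 52.4% for all windows, and windows of the same gene overlap in part. Matches are letters in a sequence and were not tested as sites.

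Hexokinases trap glucose in the cell by phosphorylating it, and the 3 genes of this step changed in different directions. Hk1 encodes the widely expressed isozyme bound to the outer mitochondrial membrane, Hk2 the related isozyme of muscle and of proliferating cells, and Hk3 the isozyme of myeloid cells. Hk3 (chromosome 13) stood at 503, 617 and 448 CPM in the DN-GMP libraries and at 348, 323 and 289 CPM in Pro-BMPs. It stood at 55.7, 55.2 and 58.0 CPM in Pre-BMPs and at 729, 637 and 590 CPM in basophils. All Pre-BMP libraries lay below every other library, and only DN-GMPs and basophils overlapped. Hk3 fell by 0.70 ± 0.12 (SE) on the log2 scale from DN-GMPs to Pro-BMPs (adjusted p = 0.00957) and by a further 2.50 to Pre-BMPs (adjusted p = 1.02e-06). It then rose by 3.53 to basophils (adjusted p = 4.59e-08), an 11.6-fold higher mean. The call against DN-GMPs was lost without Pro-BMPs replicate 3, with an adjusted p of 0.0508, and with these populations fitted alone.

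Hk2 (chromosome 6) was high in basophils, at 163, 151 and 167 CPM. It stood at 37.1, 35.9 and 47.3 CPM in DN-GMPs, at 33.7, 39.2 and 40.5 CPM in Pro-BMPs and at 27.6, 28.7 and 21.3 CPM in Pre-BMPs. Every basophil library was above all 9 progenitor libraries. The rise from Pre-BMPs was 2.64 ± 0.17 (SE) on the log2 scale, a 6.2-fold higher mean (adjusted p = 7.62e-07), and Pre-BMPs differed from Pro-BMPs by -0.55, which was not called (adjusted p = 0.0614). Hk1 (chromosome 10) was highest in Pre-BMPs. It stood at 178, 238 and 145 CPM in DN-GMPs, at 234, 235 and 225 CPM in Pro-BMPs, at 401, 316 and 344 CPM in Pre-BMPs and at 265, 254 and 263 CPM in basophils. The Pre-BMP libraries were above all others, while DN-GMPs and Pro-BMPs overlapped. Hk1 rose by 0.61 ± 0.15 (SE) to Pre-BMPs (adjusted p = 0.0277) and fell by 0.43 from there to basophils (adjusted p = 0.0477). Each of these calls was kept in only 1 of the 6 fits that leave out 1 library.

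Set directly against DN-GMPs, basophils were called higher in all 3 hexokinases, where 23.2% of all genes and 29.2% of those above 10 CPM were called higher. Of the 3 only Hk2 held under each setting tried, with a log2 change of 2.01 (adjusted p = 2.38e-06). The change of Hk1 was 0.51 (adjusted p = 0.0159), a call lost without DN-GMPs replicate 3. The change of Hk3 was 0.33 (adjusted p = 0.0462), a call kept in only 2 of the 6 fits that leave out 1 library. Both calls were also lost with these populations fitted alone, under quantile normalization, and when libraries were scaled to reads on listed genes, which gave 0.25 for Hk1 and 0.07 for Hk3.

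**Figure D2:**
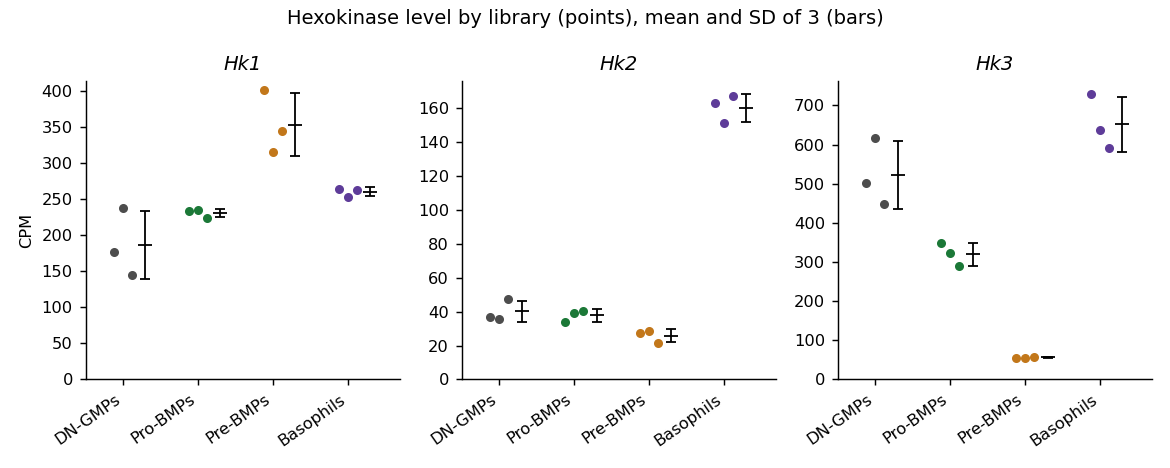
CPM of Hk1, Hk2 and Hk3 in each of the 12 libraries (points), with the mean and SD of the 3 libraries of a population (bars); each vertical axis starts at 0 and has its own range. Pre-BMPs have the highest Hk1, at 316 to 401 CPM, and the lowest Hk3, at 55.2 to 58.0 CPM, and basophils have the highest Hk2.

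Hk1 was the main hexokinase by reads in Pre-BMPs, and Hk3 in the other 3 populations. A share within a library does not depend on how libraries are scaled, and it is given here as a description. In DN-GMPs Hk3 held 69.3% to 70.1% of the reads of the 3 genes, and in Pro-BMPs 52.2% to 56.6%. Its share in Pre-BMPs was 11.5% to 13.8%, and basophils had 57.8% to 63.0%. Hk1 held 22.7% to 26.7%, 38.0% to 40.5%, 79.0% to 82.8% and 22.9% to 25.8% in the same order. The Pre-BMP range of either gene did not overlap that of any other population. Hk2 held 4.03% to 7.38% of these reads in the 3 progenitor populations and 14.1% to 16.4% in basophils. Per kilobase of exon, Hk1 made up a median of 67.6% in Pre-BMPs and Hk3 75.9% in basophils. Exon length here joins all annotated transcripts of a gene, so it can exceed the length of the transcripts present. Shares per kilobase, here and below, correct for length only roughly. The summed level of the 3 genes averaged 750 ± 128, 589 ± 31.5, 436 ± 43.8 and 1073 ± 73.2 CPM (SD, n = 3) from DN-GMPs to basophils.

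Phosphofructokinase, the committed step of glycolysis, showed a second change of isozyme, at a later point. Pfkl encodes the liver-type subunit, Pfkm the muscle type and Pfkp the platelet type. Pfkp (chromosome 13) stood at 186, 190 and 182 CPM in DN-GMPs, at 151, 142 and 141 CPM in Pro-BMPs, at 101, 85.9 and 73.6 CPM in Pre-BMPs and at 750, 745 and 603 CPM in basophils. No 2 populations overlapped. Pfkp fell by 0.75 ± 0.12 (SE) on the log2 scale to Pre-BMPs (adjusted p = 0.00295) and rose by 3.01 to basophils, an 8.05-fold higher mean (adjusted p = 5.96e-08). In the annotation 17.1% of its 50-base words also occur in the neighbouring gene Pitrm1, so part of its reads may not have been counted to 1 gene.

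Pfkl (chromosome 10) went the other way. It stood at 172, 238 and 177 CPM in DN-GMPs, at 167, 174 and 172 CPM in Pro-BMPs, at 151, 144 and 117 CPM in Pre-BMPs and at 70.5, 83.2 and 81.5 CPM in basophils. All basophil libraries were below the other 9, and Pfkl fell by 0.80 ± 0.14 (SE) from Pre-BMPs to basophils (adjusted p = 0.00136). Pfkm (chromosome 15) was low, at 8.51, 13.9 and 18.9 CPM in DN-GMPs, 10.5, 16.8 and 9.15 CPM in Pro-BMPs, 37.3, 25.6 and 35.5 CPM in Pre-BMPs and 14.7, 9.30 and 24.5 CPM in basophils. It was highest in Pre-BMPs, whose libraries overlapped none of the others, but its rise of 1.46 ± 0.41 (SE; adjusted p = 0.0448) was called in 0 of the 6 fits that leave out 1 library, with adjusted p from 0.0509 to 0.138. Of phosphofructokinase reads Pfkp held 42.7% to 50.8% in DN-GMPs and Pro-BMPs. Pre-BMPs had 32.5% to 34.9%, and basophils 85.1% to 89.8%. Pfkl held 46.8% to 56.3% in all 9 progenitor libraries and 8.44% to 11.5% in basophils. Per kilobase of exon the basophil share of Pfkp was 69.7% to 78.9%. The kinase-phosphatases Pfkfb2, Pfkfb3 and Pfkfb4, which set the level of the activator of this step, had 0 of 3 members called by limma in the 4 comparisons, with or without voom weights; Pfkfb4 was the most variable, at 31.5, 43.0 and 12.5 CPM in Pro-BMPs against 6.52, 16.3 and 6.16 CPM in DN-GMPs. At an unadjusted p under 0.05, Pfkfb4 was higher in Pro-BMPs than in DN-GMPs and Pfkfb3 lower in Pre-BMPs than in Pro-BMPs.

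**Figure D3:**
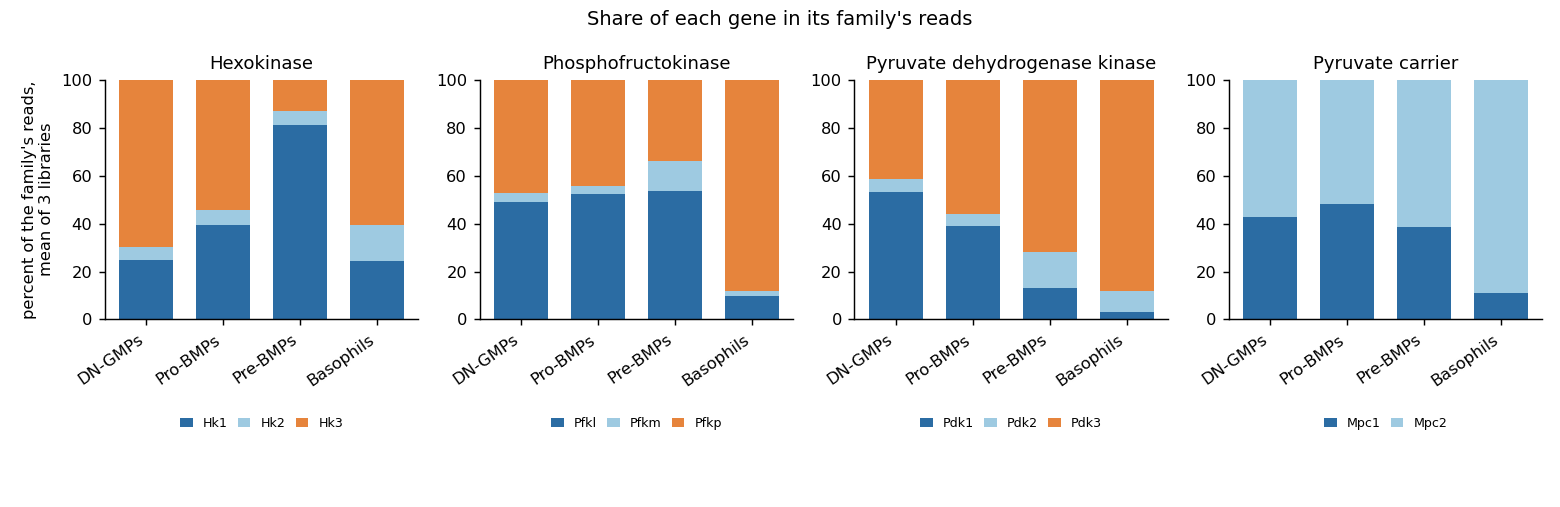
Mean share over 3 libraries of each gene in the reads of its family, for hexokinases, phosphofructokinases, pyruvate dehydrogenase kinases and the 2 subunits of the pyruvate carrier, in the 4 populations; bars sum to 100%. Hk1 takes most hexokinase reads only in Pre-BMPs, and Pfkp, Pdk3 and Mpc2 take most reads of their families in basophils.

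Of the other enzymes of the upper part of glycolysis, Gpi1, Aldoa and Tpi1 fell in Pre-BMPs; from there Gpi1 and Aldoa rose and Tpi1 fell again. Gpi1 (chromosome 7), which converts glucose 6-phosphate to fructose 6-phosphate, stood at 817, 896 and 747 CPM in DN-GMPs, 797, 843 and 873 CPM in Pro-BMPs, 435, 345 and 409 CPM in Pre-BMPs and 723, 623 and 710 CPM in basophils. The Pre-BMP libraries were the lowest and overlapped none of the others. Gpi1 fell by 1.09 ± 0.10 (SE) on the log2 scale to Pre-BMPs (adjusted p = 6.24e-05) and rose by 0.79 to basophils (adjusted p = 0.000104). Aldoa, which splits the 6-carbon sugar, fell by 0.46 to Pre-BMPs (adjusted p = 0.0177, called in 2 of the 6 fits without 1 library) and rose by 0.95 to basophils (adjusted p = 4.8e-05), with 370 to 460 CPM in Pre-BMPs and 708 to 898 CPM in basophils. Tpi1 (chromosome 6), which interconverts the 2 products of that cut, was lower still in basophils. It stood at 619, 621 and 551 CPM in DN-GMPs, 538, 563 and 551 CPM in Pro-BMPs, 436, 372 and 335 CPM in Pre-BMPs and 274, 279 and 261 CPM in basophils. Each of the later populations lay below the earlier ones except that DN-GMPs and Pro-BMPs overlapped, and Tpi1 fell by 0.54 ± 0.09 (SE) and then by 0.48 at the last 2 steps (adjusted p = 0.00367 and 0.00199). The brain-type aldolase Aldoc was at 0 reads in all DN-GMP libraries and averaged 2.17 CPM in Pro-BMPs, 3.37 CPM in Pre-BMPs and 2.79 CPM in basophils. Set against 3 reads per library the means of Pro-BMPs and basophils were at least 29.1-fold and at least 37.4-fold higher, but neither difference was called, and 1 basophil library was at 0.

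The lower part of glycolysis fell together in Pre-BMPs: 5 of its 5 measured members were lower than in Pro-BMPs. Of all genes 4.69% were called lower there, and of those above 10 CPM 6.73%. Pgam1 (chromosome 19), the phosphoglycerate mutase, stood at 208, 202 and 221 CPM in DN-GMPs, 163, 178 and 161 CPM in Pro-BMPs, 71.6, 68.9 and 67.7 CPM in Pre-BMPs and 93.8, 83.7 and 95.9 CPM in basophils. No 2 populations overlapped; Pgam1 fell by 1.27 ± 0.09 (SE) on the log2 scale to Pre-BMPs (adjusted p = 1.96e-05) and basophils stayed 1.21 below DN-GMPs (adjusted p = 1.46e-06). Pkm (chromosome 9), the pyruvate kinase that ends the pathway, stood at 1160, 1368 and 1139 CPM in DN-GMPs, 1035, 974 and 960 CPM in Pro-BMPs, 495, 459 and 438 CPM in Pre-BMPs and 996, 852 and 793 CPM in basophils. The Pre-BMP libraries were again the lowest and apart from the rest. Pkm fell by 1.09 ± 0.09 (SE) to Pre-BMPs (adjusted p = 4.56e-05) and rose by 0.92 to basophils (adjusted p = 2.44e-05). Gapdh, Pgk1 and the enolase Eno1 fell by 0.50, 0.57 and 0.61 to Pre-BMPs (adjusted p = 0.00114, 0.0082 and 0.000939). From there Eno1 rose by 0.53 (adjusted p = 0.000589), while Gapdh and Pgk1 changed by 0.05 and 0.21 (adjusted p = 0.663 and 0.184). Scaled to reads on listed genes or quantile normalized, Gapdh was called lower in basophils than in Pre-BMPs, with changes of -0.27 and -0.55. The rises of Eno1 and Pgam1 to basophils were lost when libraries were scaled to reads on listed genes or quantile normalized. All 5 genes were lower in basophils than in DN-GMPs, Pkm and Eno1 by 0.48 and 0.45 (adjusted p = 0.0014 and 0.000879). Between those populations 23.2% of all genes were called lower, and 28.5% of those above 10 CPM.

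These abundant genes have near-identical copies in the genome, and their values are uncertain to that extent. Of the 50-base words of their exons, 82.5% for Gapdh, 72.2% for Eno1, 68.0% for Pgk1, 41.5% for Pgam1 and 34.4% for Pkm also occur in other annotated genes. The 19 members with under 10% of such words include no gene of lower glycolysis. They had 7 calls from Pro-BMPs to Pre-BMPs and 11 from Pre-BMPs to basophils, counted in either direction. Pgd, a pentose phosphate gene that shares no such word, fell and rose by as much as any of the lower glycolysis genes. Its values say nothing on the reads of those genes, and the part of the copies was not tested.

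Summed over the 17 measured genes from hexokinase to lactate dehydrogenase, the level averaged 7990 ± 402 CPM (SD, n = 3) in DN-GMPs, 6932 ± 226 CPM in Pro-BMPs, 4573 ± 379 CPM in Pre-BMPs and 7573 ± 436 CPM in basophils. The Pre-BMP libraries, at 4973, 4528 and 4219 CPM, lay below all others, the nearest being a Pro-BMP library at 6744 CPM. The basophil libraries, at 8031, 7526 and 7161 CPM, overlapped those of DN-GMPs, at 7958, 8407 and 7605 CPM. That overlap depends on the deposited scaling: per 1000000 reads on listed genes, a setting added after seeing the data, the sum was 8061 to 8796 in basophils and 10288 to 11056 in DN-GMPs, with Pre-BMPs still lowest at 5883 to 6870. The lower part from Gapdh to Pkm averaged 3509 ± 105 CPM in DN-GMPs and 2331 ± 122 CPM in basophils, and the 2 sets of libraries did not overlap.

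**Figure D4:**
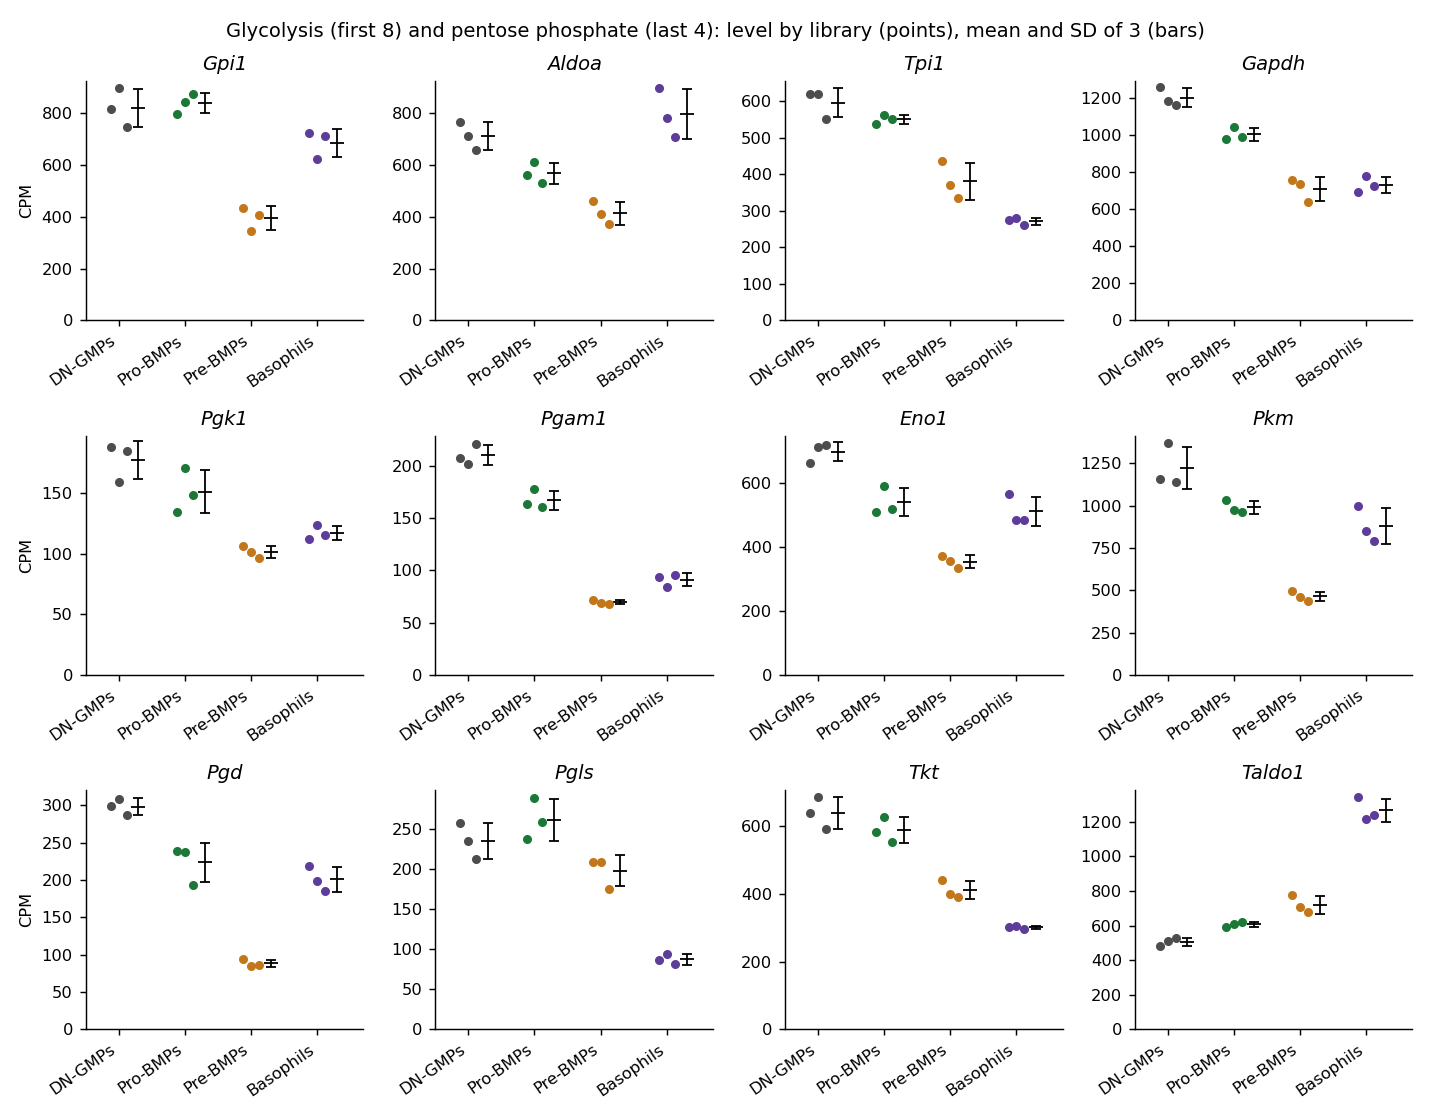
CPM in each library (points) with the mean and SD of 3 (bars) for 8 enzymes of glycolysis, in pathway order from Gpi1 to Pkm, and for 4 enzymes of the pentose phosphate pathway; each vertical axis starts at 0 and has its own range. Gpi1, Pkm and Pgd are lowest in Pre-BMPs and higher again in basophils, Tpi1, Pgls and Tkt are lowest in basophils, and Taldo1 is highest in basophils at 1216 to 1342 CPM.

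Of the lactate dehydrogenases Ldha held most reads in every population, and Ldhb was at or near 0 in basophils. Ldhb (chromosome 6), the subunit of heart-type tetramers, stood at 46.9, 59.9 and 65.4 CPM in DN-GMPs, 71.6, 84.3 and 76.2 CPM in Pro-BMPs, 16.8, 15.8 and 13.8 CPM in Pre-BMPs and 0, 0.879 and 0 CPM in basophils. No 2 populations overlapped, and the single basophil library with reads had 38. Basophils were 8.29 ± 1.27 (SE) lower than Pre-BMPs on the log2 scale of reads plus 0.5 (log2 change -8.29, adjusted p = 0.000542), a size that rests on the added 0.5 read. It was -10.38 without Basophils replicate 2, -7.25 without replicate 1 or replicate 3, and -6.03 with 5 reads added. From Pro-BMPs to Pre-BMPs the mean went from 77.4 to 15.5 CPM, but the change of -2.32 was not called (adjusted p = 0.311); with 5 reads added, with voom weights or with these populations fitted alone it was called. Ldha, the muscle-type subunit that favours lactate formation, held 93.3% to 96.1% of the reads of both genes in DN-GMPs and Pro-BMPs. Pre-BMPs had 98.4% to 98.5%, and basophils at least 99.9%. Its level was 860 to 1045 CPM in Pre-BMPs and 1533 to 1686 CPM in basophils, and it rose by 0.74 ± 0.07 (SE; adjusted p = 2.02e-05). Under quantile normalization that rise was 0.09 and not called.

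The oxidative arm of the pentose phosphate pathway had 3 measured members that behaved differently. G6pdx, glucose 6-phosphate dehydrogenase, the entry step, was called in 0 of the 4 comparisons, with population means from 163 to 226 CPM; voom weights also gave 0 calls, and 1 comparison, its lower level in Pro-BMPs than in DN-GMPs, had an unadjusted p under 0.05. Pgls (chromosome 8), the lactonase that follows, stood at 257, 235 and 212 CPM in DN-GMPs, 237, 288 and 258 CPM in Pro-BMPs, 209, 209 and 175 CPM in Pre-BMPs and 86.7, 94.4 and 81.3 CPM in basophils. The basophil libraries were the lowest and overlapped none of the others, and Pgls fell by 1.17 ± 0.11 (SE) on the log2 scale from Pre-BMPs (adjusted p = 1.97e-05). Pgd (chromosome 4), phosphogluconate dehydrogenase, the second NADPH-making step, stood at 300, 308 and 287 CPM in DN-GMPs, 239, 238 and 193 CPM in Pro-BMPs, 94.0, 85.2 and 85.8 CPM in Pre-BMPs and 219, 198 and 185 CPM in basophils. Pre-BMPs were lowest and apart, and basophils and Pro-BMPs overlapped. Pgd fell by 1.33 ± 0.10 (SE) to Pre-BMPs (adjusted p = 2.66e-05) and rose by 1.18 to basophils (adjusted p = 9.56e-06).

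In the non-oxidative arm the paired enzymes transketolase and transaldolase moved apart. Tkt (chromosome 14), which moves 2-carbon units, stood at 638, 686 and 592 CPM in DN-GMPs, 580, 627 and 551 CPM in Pro-BMPs, 441, 400 and 390 CPM in Pre-BMPs and 301, 306 and 296 CPM in basophils. It fell by 0.52 ± 0.07 (SE) and then by 0.44 on the log2 scale at the last 2 steps (adjusted p = 0.00151 and 0.00101), with no overlap between Pro-BMPs, Pre-BMPs and basophils. Taldo1 (chromosome 7), which moves 3-carbon units, stood at 482, 510 and 529 CPM in DN-GMPs, 594, 610 and 618 CPM in Pro-BMPs, 778, 705 and 680 CPM in Pre-BMPs and 1342, 1216 and 1241 CPM in basophils. No 2 populations overlapped. Basophils were 1.32 ± 0.06 (SE) above DN-GMPs, a 2.5-fold higher mean (adjusted p = 3.82e-08), and the rise from Pre-BMPs was 0.81 (adjusted p = 3.84e-06). The earlier steps were small: 0.26 to Pro-BMPs, not called (adjusted p = 0.0574), and 0.25 to Pre-BMPs (adjusted p = 0.0329, called in 1 of the 6 fits without 1 library). Under quantile normalization the rise from Pre-BMPs to basophils was 0.06 and not called. Of the isomerase Rpia and the epimerase Rpe, Rpe was lower in basophils than in DN-GMPs by 0.70 (log2 change -0.70, adjusted p = 0.00784) and Rpia was called in 0 comparisons by limma, with or without voom weights, and was higher in basophils than in Pre-BMPs at an unadjusted p under 0.05. The 7 pentose phosphate genes together averaged 2000 ± 84.6 CPM (SD, n = 3) in DN-GMPs, 1937 ± 97.3 CPM in Pro-BMPs, 1658 ± 110 CPM in Pre-BMPs and 2117 ± 64.2 CPM in basophils. Per 1000000 reads on listed genes the order of basophils and DN-GMPs turned, with means of 2364 ± 32.5 and 2674 ± 72.7.

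The carrier that takes pyruvate into the mitochondrion is built from Mpc1 and Mpc2, and both rose from Pre-BMPs to basophils. Mpc2 (chromosome 1) stood at 63.7, 46.6 and 66.4 CPM in DN-GMPs, 47.5, 51.3 and 45.2 CPM in Pro-BMPs, 55.6, 43.9 and 41.6 CPM in Pre-BMPs and 388, 355 and 335 CPM in basophils. The progenitor populations overlapped each other and every basophil library was far above them. Mpc2 rose by 2.94 ± 0.16 (SE) on the log2 scale, a 7.64-fold higher mean (adjusted p = 3.44e-07). Its partner Mpc1 averaged 29.6 ± 4.43 CPM (SD, n = 3) in Pre-BMPs and 45.1 ± 1.95 CPM in basophils, and it rose by 0.62 (adjusted p = 0.0178). That call was lost without Basophils replicate 3 or Pre-BMPs replicate 3 and when libraries were scaled to reads on listed genes. Mpc2 held 49.3% to 64.2% of the reads of both genes in progenitors and 87.6% to 89.7% in basophils. Per kilobase of exon it held 21.6% to 33.7% in progenitors, where Mpc1 was the larger part, and 66.7% to 71.2% in basophils.

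The pyruvate dehydrogenase complex, which turns pyruvate into acetyl-CoA, had 2 of its 4 members lower in basophils than in Pre-BMPs. At that step 16.5% of all genes were called lower, and 20.9% of those above 10 CPM. Dlat (chromosome 9), the acetyltransferase core, stood at 111, 97.0 and 99.99 CPM in DN-GMPs, 108, 106 and 96.3 CPM in Pro-BMPs, 68.0, 76.2 and 92.8 CPM in Pre-BMPs and 55.5, 48.1 and 47.0 CPM in basophils. The basophil libraries were the lowest, and Dlat fell by 0.65 ± 0.14 (SE) on the log2 scale from Pre-BMPs (adjusted p = 0.00426). Pdhb, the beta subunit of the decarboxylase, fell by 0.71 (adjusted p = 0.00974), with 143 to 160 CPM in Pre-BMPs and 78.1 to 124 CPM in basophils. Pdha1, its alpha subunit, was lower in basophils than in DN-GMPs by 0.67 (log2 change -0.67, adjusted p = 0.00596), and Dld, the lipoamide dehydrogenase, was called in 0 comparisons by limma, with or without voom weights, and had 0 with an unadjusted p under 0.05; its population means ran from 125 to 148 CPM.

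Of the 3 kinases that switch this complex off, Pdk1 was lower and Pdk3 higher in basophils than in DN-GMPs. Pdk1 (chromosome 2), the hypoxia-induced isozyme, stood at 132, 98.8 and 150 CPM in DN-GMPs, 73.9, 103 and 76.3 CPM in Pro-BMPs, 28.5, 11.1 and 23.3 CPM in Pre-BMPs and 0.995, 4.79 and 8.46 CPM in basophils. Only DN-GMPs and Pro-BMPs overlapped. Basophils had 26.7-fold less than DN-GMPs on average (log2 change -5.18 ± 0.63 SE, adjusted p = 4.99e-05), and Pdk1 fell by 2.50 from Pre-BMPs (adjusted p = 0.011). The size rests in part on 1 library: without Basophils replicate 1 these changes were -4.29 and -1.61, and the second call was lost when these populations were fitted alone. Pre-BMPs differed from Pro-BMPs by -2.10, which was not called (adjusted p = 0.0622), though it was under 5 other settings. Pdk2 (chromosome 11) stood at 7.51, 15.2 and 13.4 CPM in DN-GMPs, 12.3, 11.4 and 9.58 CPM in Pro-BMPs, 23.1, 25.0 and 24.0 CPM in Pre-BMPs and 17.8, 16.0 and 9.71 CPM in basophils. Its rise of 1.12 ± 0.32 (SE) to Pre-BMPs, where it was highest (adjusted p = 0.0478), was called in 0 of the 6 fits without 1 library. Pdk3 was 0.59 higher in basophils than in DN-GMPs (adjusted p = 0.00359), a call lost when libraries were scaled to reads on listed genes, and held 34.2% to 46.5% of the reads of the 3 kinases in DN-GMPs and 86.2% to 90.3% in basophils. Per kilobase of exon its share was the largest in all 4 populations, at 58.6% to 68.8% in DN-GMPs and 89.9% to 92.9% in basophils.

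**Figure D5:**
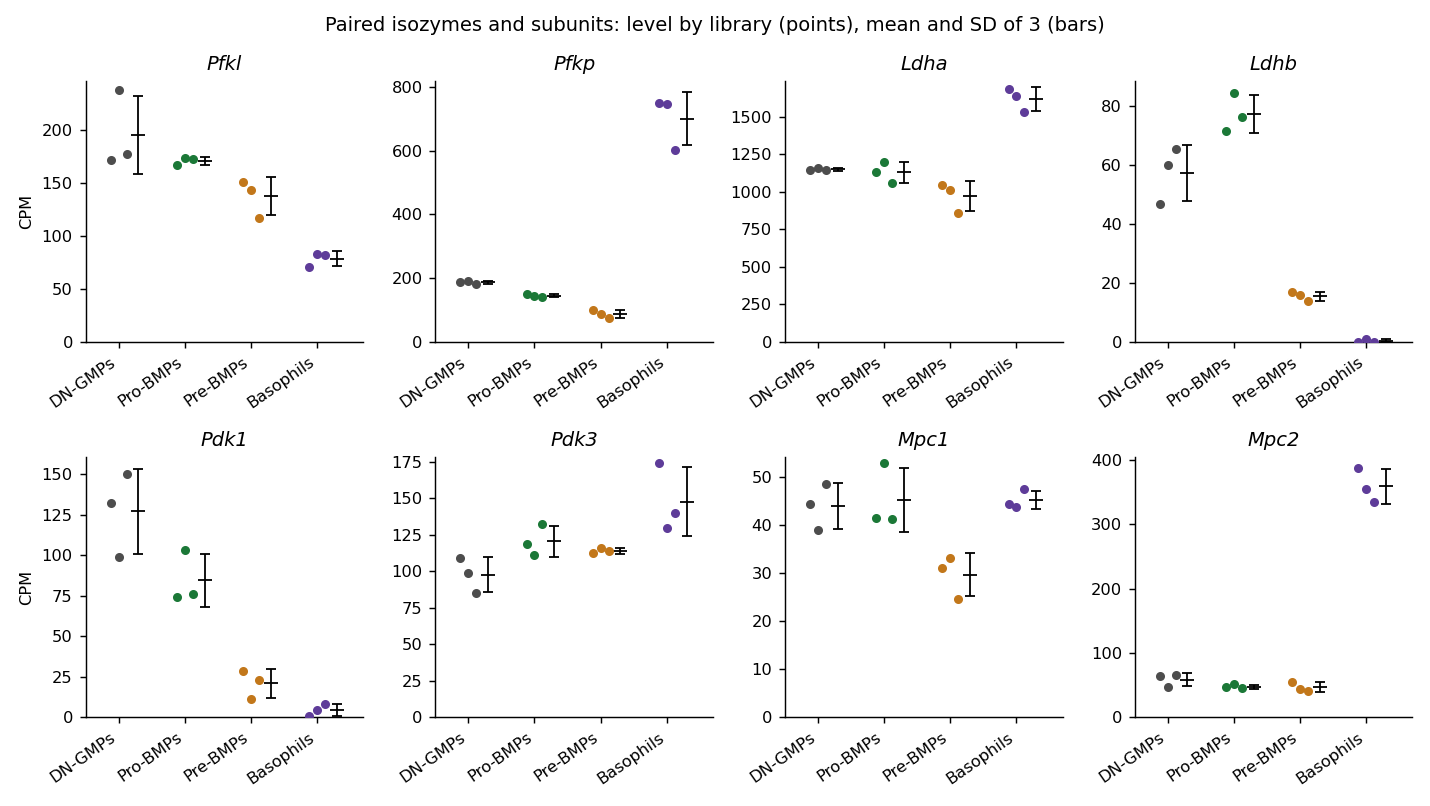
CPM in each library (points) with the mean and SD of 3 (bars) for the pairs Pfkl and Pfkp, Ldha and Ldhb, Pdk1 and Pdk3, and Mpc1 and Mpc2; each vertical axis starts at 0 and has its own range. In basophils Pfkp, at 603 to 750 CPM, and Mpc2, at 335 to 388 CPM, are above all progenitor libraries, while Ldhb, at 0 to 0.879 CPM, and Pdk1, at 0.995 to 8.46 CPM, are below them.

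Other genes of these pathways, from 9 lists of 88 genes of which 79 were measured, were followed in the same comparisons. From DN-GMPs to Pro-BMPs 1 of the 79 rose, or 1.27% against 2% of all genes, and 0 fell, against 0.536%. From Pro-BMPs to Pre-BMPs 2 rose, or 2.53% against 4.8% of all genes, and 17 fell, or 21.5% against 4.69%. From Pre-BMPs to basophils 15 rose and 22 fell, or 19.0% and 27.8% against 13.9% and 16.5% of all genes. Of genes above 10 CPM 19.9% were higher and 20.9% lower at that step, so the share that rose was near theirs. Against DN-GMPs, basophils had 16 higher, or 20.3%, which is under the 23.2% of all genes. The 36 lower, or 45.6%, stood against 23.2% of all genes and 28.5% of those above 10 CPM. Of 8 genes of glucose and lactate transport 3 rose and 2 fell from Pre-BMPs to basophils, and Slc2a1, Slc2a8 and Bsg were not called. Among the glucose transporters Slc2a3 went from 54.7 ± 17.4 to 340 ± 40.6 CPM (SD, n = 3; adjusted p = 0.00346) and Slc2a6 from 2.15 ± 1.39 to 139 ± 29.1 CPM (adjusted p = 0.0109). Among the lactate transporters Slc16a3, the exporter of glycolytic cells, went from 11.9 ± 2.37 to 58.4 ± 5.13 CPM (adjusted p = 5.43e-05), while Slc16a1 went from 65.0 ± 12.1 to 15.6 ± 9.23 CPM (adjusted p = 0.000724) and Slc16a7 from 8.18 ± 2.72 to 1.99 ± 1.64 CPM (adjusted p = 0.0411). The testis-type lactate dehydrogenase Ldhc, near Ldha on chromosome 7 and with no 50-base word shared with another annotated gene, was at 0.824 ± 0.692 CPM in DN-GMPs, 17.1 ± 7.37 CPM in Pro-BMPs and 34.4 ± 4.31 CPM in basophils, a log2 change of 6.48 from first to last (adjusted p = 0.00042). It was the 1 gene of the 79 called between DN-GMPs and Pro-BMPs (log2 change 5.39, adjusted p = 0.0196). Pgam2, the muscle mutase, was 2.18 higher in basophils than in DN-GMPs, at 3.98 ± 2.42 CPM (adjusted p = 0.0444).

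Of the genes that draw carbon off glycolysis, 7 of 9 for serine synthesis, glycerol phosphate and gluconeogenesis were lower in basophils than in DN-GMPs, where 23.2% of all genes and 28.5% of those above 10 CPM were. Phgdh, which diverts 3-phosphoglycerate to serine, went from 378 ± 31.7 CPM in DN-GMPs to 44.5 ± 6.98 CPM in basophils (log2 change -3.09, adjusted p = 3.31e-08); 63.1% of its 50-base words occur in other annotated genes. Psat1, the next step, went from 235 ± 21.3 CPM in Pre-BMPs to 52.2 ± 11.3 CPM in basophils (log2 change -2.19, adjusted p = 3.68e-06). The bisphosphatase Fbp1 and Tigar, both of which oppose phosphofructokinase, were at 20.9 ± 9.80 and 16.5 ± 6.98 CPM in DN-GMPs and at 0.4998 ± 0.768 and 0.432 ± 0.748 CPM in basophils (adjusted p = 0.00489 and 0.00997). Fbp1 was also lower in Pre-BMPs than in Pro-BMPs, at 0.364 against 9.40 CPM (adjusted p = 0.0424). Of 16 citric acid cycle genes 10 were lower in basophils than in Pre-BMPs and 1 higher, and of 10 genes that use or supply NADPH 5 rose and 2 fell at that step. Of all genes 16.5% were lower and 13.9% higher there, and of those above 10 CPM 20.9% and 19.9%. Ncf1, a subunit of the phagocyte NADPH oxidase, went from 47.1 ± 12.4 to 672 ± 86.7 CPM (adjusted p = 1.95e-07), while Cybb, the catalytic chain of that oxidase, went from 5.73 ± 1.87 to 0.0154 ± 0.0267 CPM (adjusted p = 5.15e-06), the latter mean below the level of 3 reads. The quinone reductase Nqo1 was at 0.757 ± 1.31 CPM in DN-GMPs and 11.8 ± 2.23 CPM in basophils (adjusted p = 0.00277).

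Among 5 genes of glycogen use, 2 rose from Pre-BMPs to basophils, where 13.9% of all genes and 19.9% of those above 10 CPM were called higher. Pygl, a glycogen phosphorylase, was 2.02 higher in basophils than in DN-GMPs, at 530 ± 55.8 against 132 ± 26.9 CPM (adjusted p = 3.44e-07). The pyruvate dehydrogenase phosphatase Pdp1, which reverses the kinases, was at 7.92 ± 8.47 CPM in DN-GMPs and 37.3 ± 16.5 CPM in basophils (adjusted p = 0.0291). Of 7 regulators, 3 were higher and 3 lower in basophils than in DN-GMPs, where 23.2% of all genes were called in each direction. Among the lower ones was Myc, which drives transcription of many glycolytic genes, at 91.5 ± 12.8 against 386 ± 40.2 CPM (log2 change -2.08, adjusted p = 2.9e-07). Egln1, the hydroxylase that marks HIF1A for degradation, was at 27.6 ± 5.28 CPM in Pro-BMPs and 6.204 ± 1.09 CPM in Pre-BMPs (log2 change -2.15, adjusted p = 0.000919).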

How the data were processed

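RNA of 4 sorted populations, 3 libraries each, was read from 1 deposited table. Sorting ran in 2 rounds, into TRIzol, and the kits were SmartSeq v4 for cDNA and Nextera XT for libraries, per the labels' protocols; they do not mark strand. Reads went through Trimmomatic, STAR, HTSeq and deepTools (versions not listed), per the submitters' processing notes. The genome build and annotation they used were not given in the sources used here. The authors deposited log2 values, which the values show to be log2 of reads plus 0.5 per 1000000 of a scaled library size (40263971 to 58553590). Undoing this gave whole reads, to within 0.001, for 100% of values. The 3 rows that name no gene were left out of tests: per library they held 6.65% to 12.6% (no feature), 3.63% to 4.14% (ambiguous) and 8.51% to 12.1% (not unique) of reads.

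The deposited log2 values of all 14560 genes were fitted with limma (version 3.58.1, R version 4.3.3), with 1 mean per population, moderated variances with a trend and no block. Tests were two-sided, with Benjamini-Hochberg adjustment over all genes, and a call is an adjusted p under 0.05. Changes are differences of mean log2 values; CPM are without the added 0.5 read. The fits were tested on simulated data. Part of the simulated log2 changes of 1 was missed there, so a gene that is not called may still have changed. Whether a replicate number stands for 1 mouse is not stated in the labels, and the p-values reflect spread among these libraries only, which may be technical. Libraries of a population differed by more than counting error, so each counts as 1 replicate. Members and lists were chosen with earlier results of these data known. Values by library are given for members called with a log2 change of at least 1 in any comparison (18 of 36) and for the 3 hexokinases; of other pathway genes only those called with a change of at least 2 are named, from 9 pathway lists. Chromosomes and exons are from GENCODE M21 (build GRCm38), matched by Ensembl ID; exon lengths and copies therefore rest on an annotation that may not be the authors'. Alternatives were 3 other scalings, 5 reads added, only genes above 10 CPM, voom weights, the compared populations alone, a replicate block, each library left out, and, added after seeing the data, only members with under 10% of 50-base words in other genes, and 2 sums per 1000000 reads on listed genes.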

Additional observations from a re-analysis of the deposited data

How the results depend on the processing

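Of the 66 calls over 144 member and comparison values, 53 were kept in each fit that left out 1 library and 46 also in each other setting. The direction of 4 values turned: under quantile normalization Hk3 and Aldoa in basophils against DN-GMPs had log2 changes of -0.0496 and -0.29 and Gapdh in basophils against Pre-BMPs -0.55, and scaled to reads on listed genes the last was -0.27. That scaling moved the median of all genes in basophils against Pre-BMPs and against DN-GMPs to -0.42 and -0.27, from -0.10 and -0.01 as deposited. For Pro-BMPs against DN-GMPs the count of called members was 2, and 4 with voom weights, 1 with these populations alone and 0 to 2 with 1 library left out. For Pre-BMPs against Pro-BMPs it was 17, and 11 to 12 with 1 library left out, which leaves 2 libraries in 1 population. The 19 members with under 10% of words in other genes had 1, 7, 11 and 12 calls in the 4 comparisons and 15 by the F-test. Those calls are of either direction, and no gene of lower glycolysis is among the 19. The cause of these differences was not tested.

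The replicate numbers did not pair the libraries: deviations of libraries with the same number correlated at -0.07 to 0.10 over 18 pairs, and 5 of 12 libraries correlated best with their own number. With the number as a replicate block, called members were 2, 15, 21 and 24 in the 4 comparisons and 25 by the F-test, against 2, 17, 22, 25 and 30 without it. Depth limits mainly Aldoc, Pfkfb2 and, in basophils, Ldhb and Pdk1.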
